A study of Mus musculus with 60 samples.

Results

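Islets in which the MYC fusion had been switched on for 32 h were compared with islets in which it had stayed off. The comparison used 10 of the 60 arrays of the series: 4 labelled MycON and 6 labelled MycOFF, chosen by the condition and hour in their titles. All mice were male pIns-MYCERTAM transgenics on a CBA-C57BL/6 background, in which an insulin promoter drives a MYC and oestrogen receptor fusion in beta cells. MycON mice received 1 mg of 4-hydroxytamoxifen (4OHT), which activates the fusion protein, once per day into the peritoneum. MycOFF mice received its vehicle, peanut oil. Of the 4 MycON arrays, 2 came from mice also given exenatide (exendin-4, a GLP-1 receptor agonist; 50 µg/kg under the skin, from 2 days before) and 2 from mice given water. Of the 6 MycOFF arrays, 3 came from exenatide and 3 from water. One label puts the mice at 8 to 12 weeks of age, while the treatment protocol puts them at 3 months. Islets were cut by laser from frozen pancreas sections. The labels call the arrays of a group biological replicates without naming the animals, so the p-values below measure spread between samples. That spread was pooled over the 52 arrays kept in the series, most of them from other hours. The median standard deviation within a group was 0.42 for the arrays of 32 h and 0.56 for those of other hours.

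The series was designed to follow how exendin-4 acts on islets over time with and without active MYC. Every group carried the transgene, and no group without it received 4OHT, so an effect of 4OHT apart from MYC cannot be told apart from the MYC effect. Activation acts on the fusion protein, and its RNA was not a check of the labels: the 1 probe set named Myc varied too little to be tested (difference -0.12). Each deposited value is relative, on a log2 scale, with 0 set at the median of that probe set across the 60 arrays. Differences between groups can be read from such values, but the level of one gene cannot be set against that of another, and the presence of islet or other markers cannot be read from their level.

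MYC is a transcription factor that binds DNA as a dimer with MAX, at sites called E-boxes with the letters CACGTG. It is known for driving genes of ribosome assembly, nucleotide synthesis and DNA replication, and so for pushing resting cells to grow and to copy their DNA. Beta cells of an adult islet divide rarely, and sustained MYC activity in them is known to bring both cell division and cell death, with loss of beta cell features.

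Of the 12 arrays made at 32 h, the submitters left out 2 for poor reproducibility, both MycON: exenatide replicate 3 and water replicate 1. Values within these arrays had a standard deviation of 1.40 and 1.09, against 0.28 to 0.49 in the 10 arrays kept. The mean over the muscle and skin markers was 10.004 in the left-out exenatide array, where the 52 arrays kept in the series reached at most 3.21. The results below are without them. With all 60 arrays in the fit, the 436 genes called below became 138, of which 75 were higher and 63 lower in MycON.

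Among the 6 MycOFF arrays, 3 stood apart from the others: exenatide replicate 1, water replicate 1 and water replicate 2. Their means over the muscle and skin markers were 1.26, 1.43 and 1.15, against -0.28, -0.18 and -0.15 in the other 3 MycOFF arrays and -0.27 to 0.03 in the 4 MycON arrays. The same 3 arrays had the lowest values of Ins2 (-5.51, -3.71 and -7.15, against 0.41 to 0.93), and the lowest means of their group over ribosome biogenesis (-0.49, -0.59 and -0.37, against 0.05 to 0.11), purine and pyrimidine synthesis (-0.87, -0.55 and -0.30, against -0.07 to 0.19) and mitochondrial import (-0.84, -0.41 and -0.49, against -0.05 to 0.11). Their means over replication licensing, -0.70 to -0.88, lay within the range of the other 3 or above it. Without these 3 arrays, a choice made after seeing the data, 80 genes passed in place of 436, 53 higher and 27 lower, and 71 of the 80 were among the 436. That fit compares 4 MycON with 3 MycOFF arrays. The part of other tissue in these arrays in the results was not tested.

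The E-box was looked for in the promoters of the genes that differed most, because it is the site MYC is known to bind. Its letters read the same on both strands. In RefSeq promoter windows (GRCm38.p6), CACGTG lay within the 250 bases before the start in 6.02% of all 32851 windows and in 7.96% of the windows of tested genes. The share was 11.3% (38 of 335 windows) for genes higher in MycON and 13.7% (19 of 139) for genes lower in MycON, against 7.81% for tested genes past neither threshold. The median share of C and G in these windows was 60.4% for both called groups and 58.8% for the rest. Windows were found for 266 of the 311 higher and 105 of the 125 lower genes, and a match describes the letters only. Shown here, with the motif in capitals and 5′ to 3′ along the gene, are stretches from 5 genes that rose and from Pdx1, which fell, all with values given below. The motif lay in 1 of 4 windows of Ak4, in 1 of 2 windows of Tspan4 and in 1 of 2 windows of Eif4e, there at 2 places, of which the nearer to the start is shown. Mlx and Retreg1, which fell, also hold it.
Tspan4, chr7:141476292-141476371, plus strand: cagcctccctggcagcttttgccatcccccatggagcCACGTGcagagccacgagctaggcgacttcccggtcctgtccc
Ifi30, chr8:70766817-70766896, minus strand: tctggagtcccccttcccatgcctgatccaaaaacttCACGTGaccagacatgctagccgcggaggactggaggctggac
Slc16a1, chr3:104638427-104638506, plus strand: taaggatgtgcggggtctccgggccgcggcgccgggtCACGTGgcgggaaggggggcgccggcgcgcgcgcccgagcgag
Ak4, chr4:101419453-101419531, plus strand: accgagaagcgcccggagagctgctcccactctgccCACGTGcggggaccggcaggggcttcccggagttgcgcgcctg
Eif4e, chr3:138527167-138527246, plus strand: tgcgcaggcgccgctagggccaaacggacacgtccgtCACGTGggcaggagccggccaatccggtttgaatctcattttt
Pdx1, chr5:147270009-147270088, plus strand: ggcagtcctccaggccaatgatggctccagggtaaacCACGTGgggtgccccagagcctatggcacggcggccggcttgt
Among the largest rises, Tspan4 and Ifi30 held these letters. The windows of Trip13, Smpdl3b, Cdt1, Lgals3, Mcm3, Thop1, Gmip, Mcm5 and Rad51ap1, also among the largest rises, did not.

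At 32 h, MycON islets differed from MycOFF islets in genes of replication licensing, ribosome assembly, nucleotide and serine synthesis and mitochondrial import, whose called members were all higher. Mitosis genes, islet hormones and stress response genes did not pass the test in the main fit. The beta cell transcription factors Pdx1 and Foxo1 fell. Each of the lists named as higher lost calls without the 3 MycOFF arrays that stood apart. The calls in mitochondrial import and those of Pdx1 and Foxo1 ended. That fit rests on a lone MycOFF water array. In all, 311 genes were higher and 125 lower at a Benjamini-Hochberg adjusted p under 0.05 (limma), of 13176 tested. That is 3.31% of the genes tested, 2.36% higher and 0.949% lower. The difference was at least 2-fold for 276 of the higher and 100 of the lower genes. The median over all genes tested was -0.07 on the log2 scale, with 43.4% above 0. An unadjusted p under 0.05 was reached by 1973 genes, 15% of those tested, the share beside which such counts of list members below stand. Without the MycON water replicate 3 array the count was 181, the lowest of the 10 fits that left out 1 array. Leaving out another MycON array gave 258 (exenatide replicate 1), 215 (exenatide replicate 2) or 281 (water replicate 2).

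The arrays separated for most of these genes, which follows in part from calling them on the same arrays. In 273 of the 311 higher genes all 4 MycON arrays lay above all 6 MycOFF arrays, and in 93 of the 125 lower genes all 4 lay below. Over all genes tested, 9.58% did not overlap, 5.27% with MycON higher and 4.31% with MycON lower. Of the 436 genes, 225 had another probe set past the filter, and in 175 of these every other probe set had the same sign. The size often differed between probe sets. Trip13, for example, had 3.71 with the probe set used and 0.36 with another, and its call ended without MycON water replicate 3. Other probe sets past the filter had 0.18 for Mcm5, 0.30 and 2.44 for Mcm3, 2.69 and -0.16 for Cdt1, -0.24 for Ak4, 0.05 for Mxi1 and -0.08, 2.05 and 1.02 for Gart. Values of single genes below therefore belong to the probe set with the widest range.

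The most certain difference was in Smpdl3b, a membrane-anchored enzyme of the sphingomyelinase family. Its MycON values were 2.37 and 3.58 with exenatide and 3.58 and 3.78 with water, against -0.60 to 0.01 (median -0.19) in the 6 MycOFF arrays. The lowest MycON array stood more than 2 log2 units above the highest MycOFF array. The difference was 3.54 ± 0.31 (SE), adjusted p = 4.08e-09.

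Tspan4, a tetraspanin of the cell membrane, read 1.27, 2.12, 2.63 and 1.52 in MycON and -2.27 to -1.06 (median -1.79) in MycOFF. The groups did not overlap, and the difference was 3.63 ± 0.41 (adjusted p = 4.89e-07). Ifi30, a thiol reductase of the lysosome, lay between 1.28 and 1.54 in the 4 MycON arrays. Its MycOFF values ranged from -2.84 to -1.04, and the difference was 3.09 ± 0.31 (adjusted p = 4.52e-08). Slc6a15, a transporter of neutral amino acids, read 3.77, 2.85, 3.53 and 3.31 in MycON while no MycOFF array exceeded 0.20. Gmip rose by 3.20 ± 0.40 with no overlap.

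Other genes of the 8 smallest p were Fig4, a phosphoinositide phosphatase (2.32 ± 0.27), Dctd, which deaminates dCMP on the way to thymidine nucleotides (2.06 ± 0.25), Lrrfip1 (2.44 ± 0.31) and Ccbe1 (1.56 ± 0.17). Each was higher in all 4 MycON arrays than in any MycOFF array. Thop1, a cytosolic peptidase, rose by 3.27 ± 0.86, but its MycOFF values spread from -2.99 to 0.83, and leaving out any 1 of 8 of the 10 arrays ended its call.

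**Figure D1:**
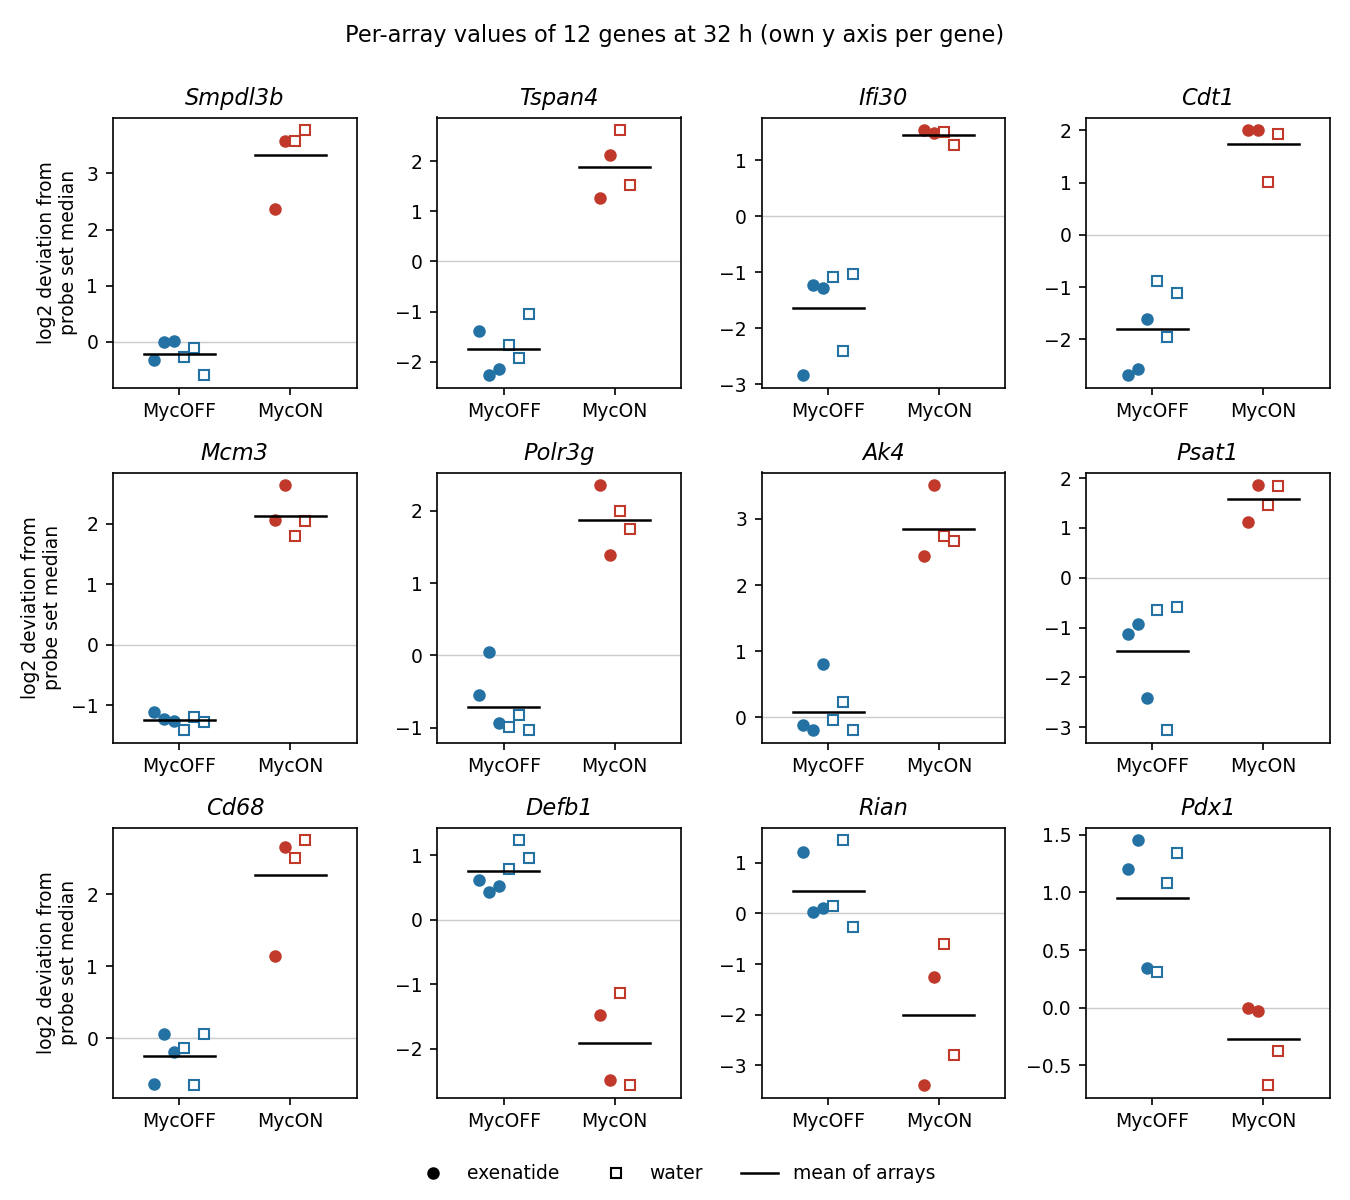
Value of each of 12 genes in every array at 32 h, as log2 deviation from the probe set median over 60 arrays. Circles are exenatide and squares water, bars are means over the 4 MycON or 6 MycOFF arrays, and each gene has its own y axis. The 2 groups do not overlap in any of the 12 genes shown, of which Defb1, Rian and Pdx1 are lower in MycON.

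Replication licensing loads the MCM helicase onto origins before DNA is copied, and it was the list with the highest median difference. Of its 18 tested genes 10 rose and 0 fell, all 18 lay above 0, and the median was 1.91, against -0.07 over all genes. The median was 2.04, and 4 genes passed, without the 3 MycOFF arrays that stood apart. Cdt1, which brings the helicase to the origin, read 2.00, 2.01, 1.01 and 1.94 in MycON and -2.69 to -0.88 (median -1.78) in MycOFF, a difference of 3.54 ± 0.70 (adjusted p = 0.00288). Every MycON array lay above every MycOFF array.

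The helicase subunits followed. Mcm3 read 2.06, 2.65, 1.80 and 2.04 in MycON and stayed within -1.42 to -1.12 in the 6 MycOFF arrays (difference 3.39 ± 0.63, adjusted p = 0.00126). Mcm5 rose by 3.20 ± 0.79, Mcm6 by 2.92 ± 0.66, Mcm2 by 2.69 ± 0.74, Mcm7 by 1.88 ± 0.41 and Mcm4 by 1.78 ± 0.46, so all 6 subunits passed the test. The loader Cdc6 (2.81 ± 0.65), Mcm10 (2.22 ± 0.62) and the origin subunit Orc6 (1.65 ± 0.28) rose as well. Subunits of the GINS complex, which joins the helicase later, had 0.06 to 1.46 and did not pass. The count of 10 fell to 4 without MycON exenatide replicate 2 or without MycON water replicate 3, while the list median stayed between 1.74 and 2.01 whichever array was left out.

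Among genes of the replication fork and of DNA precursors, 8 of 29 rose and 0 fell, with a median of 1.02. Hells, a chromatin remodeller, read 3.11, 1.19, 2.23 and 2.77 in MycON and at most -0.24 in MycOFF, a difference of 2.93 ± 0.58. The sliding clamp Pcna rose by 2.38 ± 0.55, its loader subunit Rfc4 by 2.30 ± 0.53 and the primase Prim1 by 2.28 ± 0.50. Fen1, Uhrf1, Rpa2 and Dctd were the others. Dctd is the gene of this list that also stood among the 8 smallest p. Without MycON water replicate 3, 2 of the 8 calls were left.

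Mitosis genes gave another picture. Of 33 tested genes of the spindle, kinetochore and cytokinesis, 0 passed the limma test and 3 had an unadjusted p under 0.05 (Mad2l1, Top2a and Cdca8), a smaller share than the 15% over all genes. The median was 0.35, and 25 of the 33 lay above 0, against 43.4% over all genes. With the 10 arrays of 32 h alone 3 rose and 0 fell, and after quantile normalization 1 rose and 0 fell. Mki67, the proliferation marker, read -0.08, 0.41, -1.08 and -0.13 in MycON and -2.44 to 0.12 (median -1.33) in MycOFF. The groups overlapped, and the difference of 1.00 ± 0.86 did not pass (adjusted p = 0.665). The mean over the 33 genes was nonetheless higher in each MycON array (-0.23 to -0.01) than in any MycOFF array (-0.73 to -0.37). Trip13, an ATPase of the spindle checkpoint outside the list, had the largest rise of all genes, 3.71 ± 0.78, with MycON values of 2.08, 2.53, -0.48 and 1.82 above a MycOFF range of -2.94 to -1.66.

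Among 22 cyclins, their kinases and E2F factors, 2 rose: Ccne2, the cyclin of entry into S phase (2.45 ± 0.59), and Cdc25a, the phosphatase that activates its kinase (1.43 ± 0.25). Without MycON exenatide replicate 1 or MycON water replicate 3, 1 was left. E2f1 was at 0.00 and Ccnd1 at -0.75, and neither passed. Of the 7 CDK inhibitors, 1 rose and 1 fell. Cdkn2a, which encodes p16 and ARF, read 1.78, 1.58, 0.80 and 1.01 in MycON and -0.15 to 0.03 in MycOFF (1.33 ± 0.30, adjusted p = 0.00784). Its neighbour Cdkn2b, which encodes p15, moved the other way, from -0.05 to 0.59 in MycOFF to -0.26, -0.75, -1.31 and -1.13 in MycON (-1.05 ± 0.27, adjusted p = 0.0202). Both calls ended without MycON water replicate 3, and that of Cdkn2b also without MycON exenatide replicate 2, MycON water replicate 2 or MycOFF exenatide replicate 2. Cdkn1a, which encodes p21, was higher in every MycON array (0.95 to 1.68) than in any MycOFF array (-2.66 to 0.01), yet its difference of 1.82 ± 0.79 did not pass (adjusted p = 0.248).

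**Figure D2:**
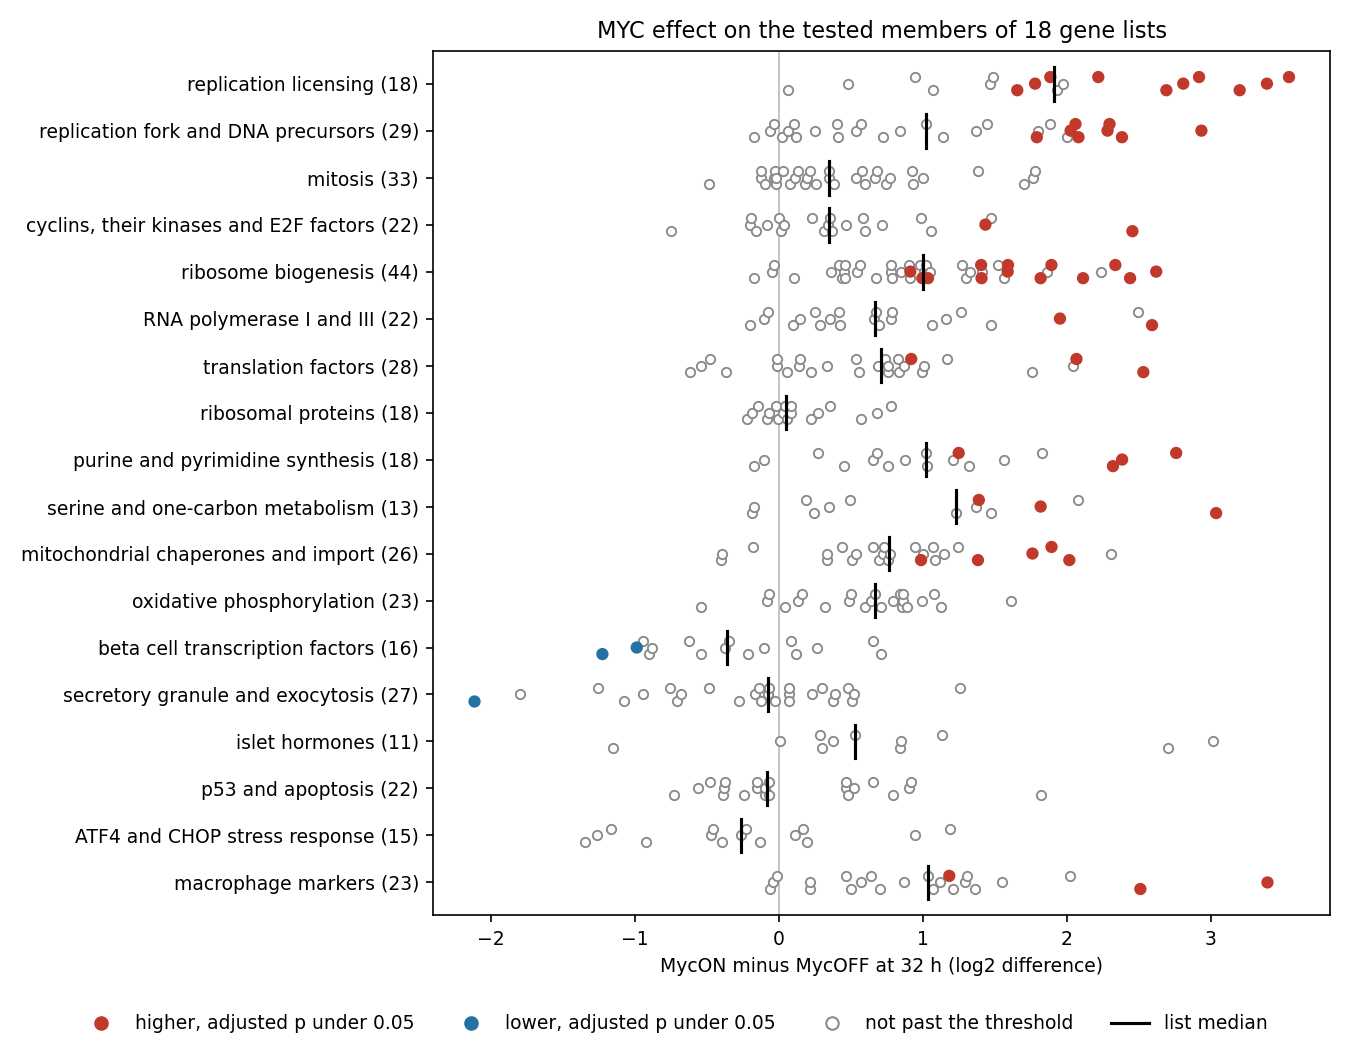
MycON minus MycOFF at 32 h (log2 difference) for every tested member of 18 gene lists, with the number tested in brackets. Filled points passed an adjusted p under 0.05 (red higher, blue lower), open points did not, and black bars are list medians; the median is 1.91 for replication licensing and 0.35 for mitosis.

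Ribosome biogenesis, the making of ribosomes in the nucleolus, had the largest number of called genes and also the most genes tested among the lists. Of 44 tested factors 13 rose and 0 fell, 41 lay above 0, and the median was 1.00. Nop16 read 1.91, 2.03, 2.20 and 1.87 in MycON and -1.06 to -0.20 (median -0.62) in MycOFF. The MycON arrays were within 0.33 of each other, and the difference was 2.62 ± 0.46 (adjusted p = 0.000632). Nolc1, a nucleolar phosphoprotein, rose by 2.11 ± 0.47, Bop1, which processes the large subunit, by 2.44 ± 0.64, and Nop56, a core protein of the methylating snoRNPs, by 1.89 ± 0.44. Nhp2 (2.34 ± 0.55) and Nop10 (1.59 ± 0.36) belong to the pseudouridylating snoRNPs. Smaller rises were seen in Wdr75 (1.00 ± 0.18) and Nop14 (0.91 ± 0.17), whose MycON arrays also lay above all MycOFF arrays. The count of 13 fell to 5 without MycON water replicate 2. Without the 3 MycOFF arrays that stood apart it was 4, with a median of 0.72.

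Of 22 subunits and factors of RNA polymerases I and III, which transcribe ribosomal RNA and tRNA, 2 rose. Polr3g, a subunit of polymerase III, read 2.36, 1.39, 2.00 and 1.75 in MycON and -1.04 to 0.05 (median -0.88) in MycOFF (2.59 ± 0.33, adjusted p = 5.78e-06). Polr1b, a large subunit of polymerase I, rose by 1.95 ± 0.50, and its call ended without 1 of 4 arrays, 3 of them MycON. The list median was 0.67.

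In translation, Eif4e, which binds the mRNA cap, read 1.53, 0.65, 1.06 and 0.94 in MycON and -2.12 to 0.05 (median -1.23) in MycOFF, a difference of 2.07 ± 0.45 (adjusted p = 0.00664). Eef1e1, an accessory protein of the tRNA synthetase complex, rose by 2.53 ± 0.52, and Eif4ebp2, an inhibitor of Eif4e, by 0.92 ± 0.25. These were the 3 of 28 translation factors that passed (median 0.71), and 1 was left without MycON exenatide replicate 1. Of 19 aminoacyl-tRNA synthetases 0 passed the limma test, with 5 at an unadjusted p under 0.05. Of the 18 ribosomal proteins tested, 0 passed at either level, and their median was 0.05. Assembly factors and the ribosome's own proteins therefore had different medians, although the lists were not tested against each other.

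In the network of MYC partners, Mxi1, a repressor that competes for MAX, rose by 1.92 ± 0.35. Its MycON values of 1.53, 0.60, 1.62 and 1.36 did not overlap the MycOFF range of -1.93 to -0.12. The paired ATPases Ruvbl1 and Ruvbl2, which bind MYC, rose by 2.42 ± 0.48 and 1.17 ± 0.26. Mlx, the MAX-like partner of glucose-sensing factors, fell by 0.78 ± 0.22 (adjusted p = 0.0337), and 7 of the 10 fits without 1 array ended that call. Max itself (0.24 ± 0.15) and Mycn (-0.01 ± 0.16) did not pass. The 15 tested members had a median of -0.14.

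Nucleotide synthesis was represented by 4 rises among 18 genes and 0 falls, with a median of 1.02. Ak4, a mitochondrial adenylate kinase, read 2.44, 3.52, 2.75 and 2.67 in MycON and -0.20 to 0.81 (median -0.08) in MycOFF, a difference of 2.76 ± 0.43 (adjusted p = 0.000138). Of the enzymes of purine ring assembly, Pfas rose by 2.38 ± 0.52, Gart by 2.32 ± 0.65 and Paics by 1.25 ± 0.33. Gart is the least certain of these, with an adjusted p of 0.0381 and calls lost in 7 of the 10 fits without 1 array. The count fell to 2 without any one of the 4 MycON arrays, or without MycOFF exenatide replicate 1 or MycOFF water replicate 2.

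Serine and one-carbon metabolism supplies the carbon for these rings, and 3 of its 13 tested genes rose (median 1.23). Psat1, an enzyme of serine synthesis, read 1.12, 1.87, 1.45 and 1.85 in MycON and -3.06 to -0.59 (median -1.03) in MycOFF. The groups stood apart, with a difference of 3.04 ± 0.50 (adjusted p = 0.000273). Mthfd1l, of the mitochondrial folate pathway, rose by 1.82 ± 0.44, and Phgdh, the first enzyme of serine synthesis, by 1.39 ± 0.37. Without MycON exenatide replicate 2 only Psat1 kept its call. Odc1, a textbook MYC target and the first enzyme of polyamine synthesis, had 0.90 ± 0.41 with overlapping arrays and did not pass (adjusted p = 0.285). Its other probe sets past the filter had 1.07 and 0.67, and Odc1 passed when its probe sets were averaged. In the main fit its 8 tested neighbours in that list did not pass either, and 3 of the 9 had an unadjusted p under 0.05.

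Among 16 transporters of nutrients, 3 rose. Slc16a1, the monocarboxylate transporter that beta cells normally keep low, read 2.87, 1.78, 2.77 and 2.05 in MycON and -0.80 to 0.44 (median -0.53) in MycOFF (2.76 ± 0.48, adjusted p = 0.000573). Slc19a1, which carries folate, rose by 2.01 ± 0.45, and Slc7a1, which carries arginine and lysine, by 1.23 ± 0.28. Of 17 glycolysis genes Pgam1 rose (1.10 ± 0.22), and the median was 0.36. In mitochondrial chaperones and import, 5 of 26 rose with a median of 0.76: Timm8a1 (2.02 ± 0.35), Phb2 (1.89 ± 0.48), Timm9 (1.76 ± 0.49), Tomm20 (1.38 ± 0.32) and Timm23 (0.99 ± 0.23). The 5 became 1 without MycON water replicate 3. Of 23 genes of oxidative phosphorylation 0 passed the limma test and 4 had an unadjusted p under 0.05 (median 0.67).

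Of 16 tested transcription factors of beta cells 2 fell and 0 rose, with a median of -0.36. Of the 16, 11 lay below 0 and 5 above. With the 10 arrays of 32 h alone 1 rose and 2 fell, and after quantile normalization 1 rose and 3 fell. Pdx1, the factor that keeps insulin genes on, read -0.01, -0.03, -0.67 and -0.38 in MycON and 0.31 to 1.46 (median 1.14) in MycOFF. The arrays did not overlap, and the difference was -1.23 ± 0.31 (adjusted p = 0.0168). The call of Pdx1 also ended when its probe sets were averaged. Foxo1 fell by 0.99 ± 0.22 (adjusted p = 0.00664), again without overlap. Isl1 (-0.95) and Nkx2-2 (-0.90) had like values and did not pass. The count became 0 without MycON exenatide replicate 2 or without MycON water replicate 3, and 1 without either other MycON array. Without the 3 MycOFF arrays that stood apart it was 0 as well, with -1.39 ± 0.38 for Pdx1 and -1.02 ± 0.25 for Foxo1.

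Ins2, which encodes insulin 2, had a large mean difference that did not pass. Its 4 MycON values lay between 0.19 and 0.53. In MycOFF, 3 arrays read 0.41, 0.74 and 0.93, while exenatide replicate 1, water replicate 1 and water replicate 2 read -5.51, -3.71 and -7.15. The difference was 2.70 ± 1.56 (adjusted p = 0.445, limma). Without those 3 arrays it was -0.43 ± 1.70, smaller than its SE, so no direction was shown. Iapp (0.85 ± 0.68) and Ucn3 (-1.15 ± 0.76), which beta cells also secrete, overlapped between groups. Of 11 islet hormones 0 passed the limma test and 1, Vip, had an unadjusted p under 0.05. Fewer cells of a type and less RNA per cell cannot be told apart in captured islets. Ins1, Mafa and Trp53 were not analysed here, and Glp1r varied too little to be tested.

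Of 27 genes of secretory granules and exocytosis 1 fell, Rab37, a small GTPase of granules. It read -1.14, -0.19, -0.87 and -1.57 in MycON and 0.15 to 1.90 (median 1.28) in MycOFF (-2.12 ± 0.50, adjusted p = 0.0107), and the call ended without MycON exenatide replicate 1 or MycON water replicate 3. Stx1a (-1.26) and Cplx2 (-1.80) had large differences that did not pass. The list median was -0.08, against -0.07 over all genes, with 11 of the 27 above 0 and 16 below. The 1 call stands beside 3.31% of genes called over all tested. Of 12 genes of glucose sensing, Slc2a2 among them (-0.51 ± 0.38), 0 passed the limma test and 0 had an unadjusted p under 0.05.

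Stress and death genes did not pass at this hour in the main fit. Of the 15 genes of the ATF4 and CHOP response 0 passed the limma test and 3 had an unadjusted p under 0.05. Ddit3, which encodes CHOP, read -0.26, -0.40, -0.59 and -0.94 in MycON and -0.23 to 0.96 (median 0.33) in MycOFF. All MycON arrays were lower, but the difference of -0.93 ± 0.33 missed the threshold (adjusted p = 0.133). Ddit3 did pass after quantile normalization and with array weights. Among 22 genes of p53 and apoptosis the count was 0, with 6 at an unadjusted p under 0.05, and Bcl2l1, which opposes apoptosis, had -0.48 ± 0.27. The 23 genes of the unfolded protein response (median 0.03) gave 0 calls and 2 at an unadjusted p under 0.05.

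The largest falls came from genes of varied roles. Defb1, a secreted antimicrobial peptide, read -1.47, -2.48, -1.13 and -2.56 in MycON and 0.43 to 1.24 (median 0.70) in MycOFF, with no overlap (-2.67 ± 0.41, adjusted p = 0.000102). A second Defb1 probe set had -2.16. Rian, an imprinted long noncoding RNA, read -3.40, -1.25, -0.60 and -2.79 against -0.26 to 1.46 (-2.46 ± 0.51, adjusted p = 0.00451). Its 3 other probe sets past the filter had -1.48, -1.50 and -0.15.

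Lrrc10b (-2.34 ± 0.41), Yipf2, a membrane protein of the Golgi (-2.05 ± 0.42), and Ttll1, which adds glutamate chains to tubulin (-1.96 ± 0.34), also fell without overlap of the arrays. So did Vasn, a membrane protein that binds TGF-beta (-2.11 ± 0.47), and Hspa13, a relative of HSP70 in microsomes (-1.95 ± 0.51). Retreg1, a receptor for the removal of endoplasmic reticulum, fell by 2.05 ± 0.58. Other probe sets past the filter had -0.13 for Vasn, -0.23 and -0.83 for Hspa13, -0.43 for Retreg1 and -1.27 for Yipf2. The call of Retreg1 also ended with the mean over probe sets. In Hs3st6, which sulphates heparan (-2.13 ± 0.54), Zdhhc22, a palmitoyl transferase (-1.98 ± 0.48), and the interferon-induced GTPase Mx1 (-1.93 ± 0.52), 1 MycOFF array lay as low as MycON arrays. Of the 10 fits without 1 array, 8 ended the call of Retreg1, 6 that of Hspa13, 6 that of Mx1, 5 that of Hs3st6, and 2 each those of Rian, Vasn and Zdhhc22, while Defb1, Lrrc10b, Yipf2 and Ttll1 kept theirs in all 10. Without the 3 MycOFF arrays that stood apart, Defb1, Lrrc10b, Ttll1, Hs3st6 and Zdhhc22 kept their calls.

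Markers of other cells were read beside these results. Of 23 tested macrophage markers 3 rose: Lgals3 (3.39 ± 0.93), Cd68 (2.51 ± 0.62) and Cd163 (1.18 ± 0.34), and the median was 1.03. Cd68, a lysosomal protein of phagocytes, read 1.15, 2.65, 2.51 and 2.75 in MycON and -0.65 to 0.06 in MycOFF. Lgals3, galectin-3, overlapped, since MycOFF exenatide replicate 2 read 1.74. Lyz2 had 2.02 ± 0.72, C1qa 1.55 ± 0.80, Adgre1 0.64 ± 0.40 and Csf1r -0.01 ± 0.46, and these 4 did not pass. The mean over the 23 markers ran from 0.28 to 1.15 in MycON and from -0.94 to 0.45 in MycOFF, so the groups overlapped on it. The count fell to 0 without MycON exenatide replicate 2 or without MycON water replicate 2. Of the 10 fits without 1 array, 8 ended the call of Cd163, 7 that of Lgals3 and 3 that of Cd68. Cd163 also lost its call under the replicate block (414 genes called in all).

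Lymphocyte (8), endothelial (13), stromal (18), acinar (19), duct (6) and muscle and skin markers (11) gave 0 calls each. The limma test at an unadjusted p under 0.05 gave 1, 3, 1, 0, 1 and 0 of them. Acinar enzymes, which reach islet samples from the tissue around them, varied between arrays more than between groups, with list means of -0.42 to 2.82 in MycON and -0.51 to 2.41 in MycOFF. The part of macrophages or of acinar tissue in the results above was not tested.

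Markers of other endocrine cells (10 tested, median 0.29) and cAMP and CREB targets (16, -0.33) gave 0 calls each in the main limma fit. So did cytosolic heat shock genes (15, 0.35), cholesterol synthesis (14, 0.17) and the proteasome (22, 0.59). In this order, 0, 3, 3, 2 and 2 genes had an unadjusted p under 0.05 (limma). Of the 22 proteasome genes, 21 lay above 0. With the 10 arrays of 32 h alone 3 heat shock genes and 1 proteasome gene rose. After quantile normalization 2 of each rose, and 2 cAMP and CREB targets fell. Of 15 circadian clock genes 1 rose: Hlf, a transcription factor of the clock's output, read 0.20, 2.36, 2.56 and 1.91 in MycON and -0.02 to 1.65 in MycOFF (1.43 ± 0.36, adjusted p = 0.0198). The groups overlapped, and 4 of the 10 fits without 1 array ended that call.

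Counts of called list members moved with the arrays and the scaling, while licensing and ribosome biogenesis had 0 falls in each of the following fits. With all 60 arrays, replication licensing had 1 rise, ribosome biogenesis 1, RNA polymerase I and III 1, purine and pyrimidine synthesis 2, mitochondrial import 2 and macrophage markers 0. After quantile normalization the same lists had 14, 22, 8, 8, 9 and 4 rises. With the 10 arrays of 32 h alone they had 13, 16, 7, 7, 8 and 1. Without the 3 MycOFF arrays that stood apart they had 4, 4, 1, 1, 0 and 0, with medians of 2.04, 0.72, 0.32, 0.79, 0.45 and 0.54. In that fit the median of oxidative phosphorylation was 0.18 in place of 0.67, that of translation factors 0.28 in place of 0.71, and that of islet hormones 0.07 in place of 0.53. Of 70 named genes called, 44 lost their call in it. Smpdl3b (3.62), Tspan4 (3.52), Ifi30, Slc6a15, Gmip, Mcm3, Orc6, Nop16, Polr3g, Ak4, Psat1, Slc16a1 and Ccbe1 (1.57) were among those that kept it.

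**Figure D3:**
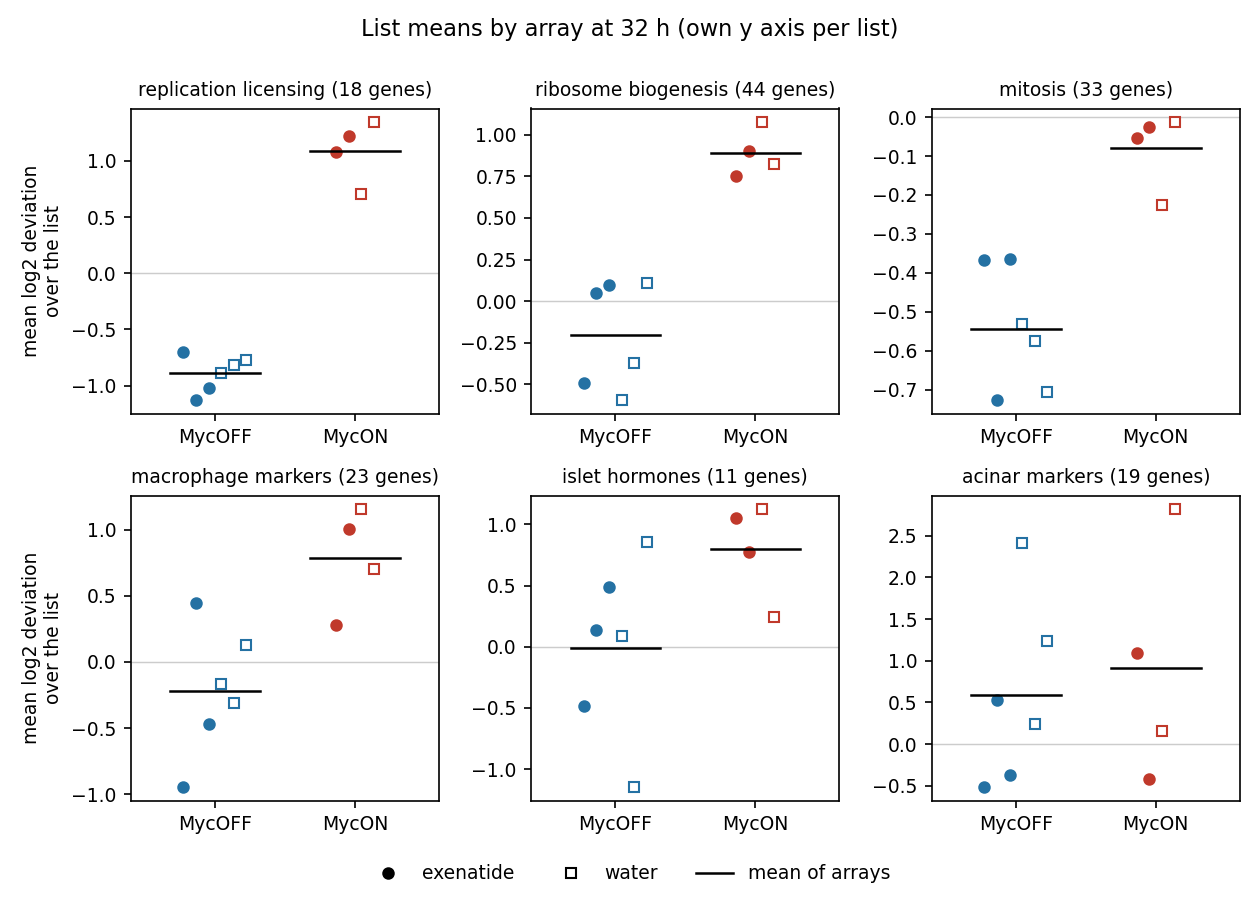
Mean log2 deviation over the tested members of 6 lists in each array at 32 h, with circles for exenatide, squares for water and bars for group means; each list has its own y axis. Replication licensing, ribosome biogenesis and mitosis do not overlap between groups, although 0 single mitosis genes passed the test in the main fit. Macrophage, hormone and acinar means overlap.

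The MYC effect was then compared between the injections. With water alone 63 genes passed (53 higher, 10 lower; 0.478%), and with exenatide alone 43 (37 higher, 6 lower; 0.326%), each from 2 MycON and 3 MycOFF arrays. Without MycON water replicate 3 the water count was 21, and without MycOFF exenatide replicate 1 the exenatide count was 12. The counts were 13 and 8 without the 3 MycOFF arrays that stood apart. The interaction of MYC with injection passed for 0 genes (0%) in limma, with 133 at an unadjusted p under 0.05. The smallest adjusted p was 0.278, for Rita1, so a difference between the injections was not shown for any gene, nor was it shown to be absent, with a median SE of 0.69 for the interaction.

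The called genes were chosen on the mean of both injections, which by itself favours a shared sign. The counts that follow are therefore a description. Of the 311 higher genes 309 were above 0 with both injections and 231 reached 2-fold in both, and all 125 lower genes were below 0 with both, 81 of them by 2-fold or more. Tspan4 had 3.62 with water and 3.64 with exenatide, and Gmip 3.10 and 3.30. Cdt1 had 2.79 with water and 4.30 with exenatide, with an SE of 0.99 for each. The 2 exceptions in sign were Rita1 and Tyw1, which had 1.42 and 1.21 with water and -0.05 each with exenatide. Both were high in the 2 MycON water arrays, while the 2 MycON exenatide arrays and all MycOFF arrays lay between -0.12 and 0.12. Acp7 had the reverse order, with 0.93 and 0.87 in the 2 MycON exenatide arrays.

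**Figure D4:**
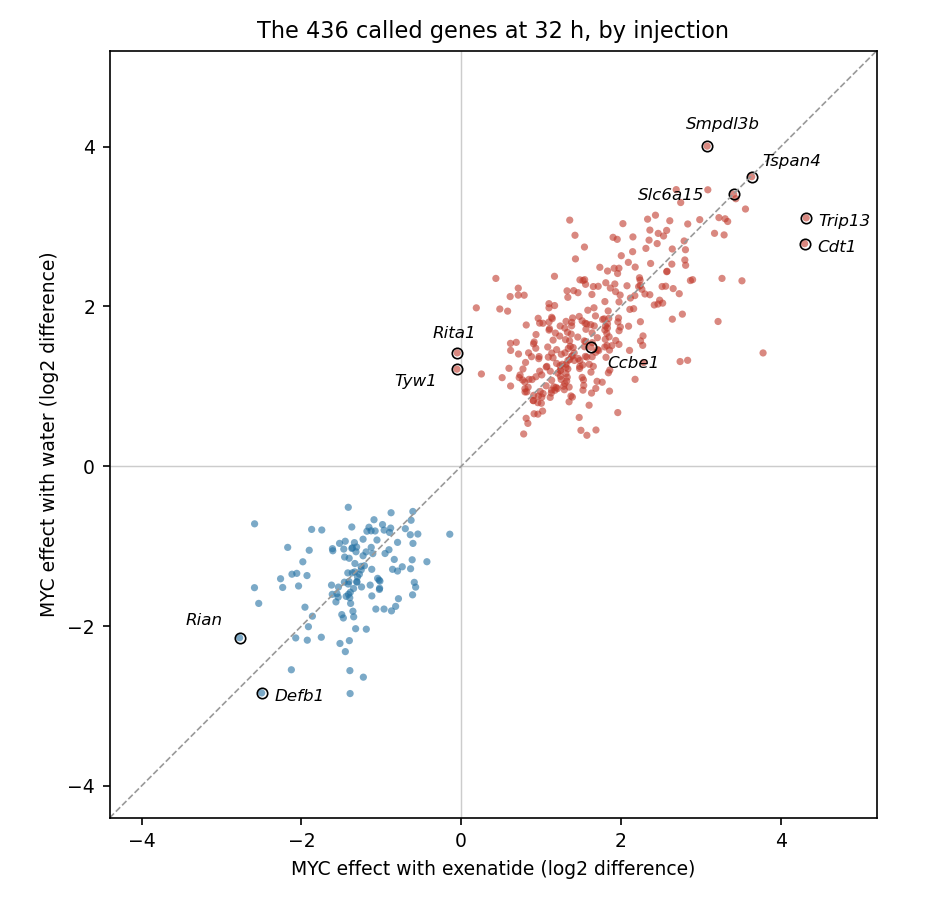
MYC effect with water against MYC effect with exenatide (log2 differences, 2 MycON and 3 MycOFF arrays each) for the 436 called genes, red higher and blue lower, with the line of equal effects dashed. All but Rita1 and Tyw1, near 0 on the exenatide axis, have the same sign with both injections. The genes were called on the mean of both effects, which by itself favours a shared sign.

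At the other hours the same contrast called 302 genes at 4 h (2.29%), 518 at 8 h (3.93%), 301 at 16 h (2.28%) and 182 at 72 h (1.38%). These hours have arrays of their own, 9 to 11 each, and their own MycOFF arrays. Of the 311 higher genes, 127 were also called higher at 4 h, 169 at 8 h, 47 at 16 h and 19 at 72 h, which is 40.8%, 54.3%, 15.1% and 6.11% of the list at 32 h and 61.1%, 42.8%, 17.3% and 12.5% of the lists at those hours. Lower genes shared 31, 38, 5 and 1 calls in the same order, and no gene was called in opposite directions. In sign, 302 of the 311 were above 0 at 4 h and 302 at 8 h, against 263 at 16 h and 184 at 72 h. Their medians there were 1.10, 1.14, 0.68 and 0.08, against -0.06, 0.05, 0.04 and -0.04 over all genes tested.

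Fabp5, Ifi30, Psat1 and Tspan4 were called higher at all 5 hours. Ak4 had 2.78, 2.74, -0.17, 2.76 and -0.65 at 4, 8, 16, 32 and 72 h, so its effect at 32 h equalled that of the first hours and was near or below 0 at 16 and 72 h. Polr3g had 2.05, 1.84, 0.30, 2.59 and -0.92, also lower at 16 and 72 h than at 4, 8 and 32 h. Licensing genes gave 1, 14, 9, 10 and 4 calls at the 5 hours, ribosome biogenesis 9, 13, 1, 13 and 0, mitosis 0, 4, 25, 0 and 9, and macrophage markers 0, 0, 3, 3 and 13. Mki67 had 4.03 at 16 h and 1.00 at 32 h, and Cd68 0.25, 0.46, 2.92, 2.51 and 4.18 over the hours.

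Whether 32 h differed from the other hours was tested directly, as its MYC effect minus the mean of those at 4, 8, 16 and 72 h. In this test 1 gene passed (0.00759%) and 498 had an unadjusted p under 0.05, so the counts by hour above are a description. The gene was Ccbe1, a secreted protein known from lymphatic vessel growth. Its MycON values at 32 h were 1.72, 1.55, 1.10 and 1.90, and no MycOFF array exceeded 0.02. The MYC effect was 0.02, 0.03, -0.11 and 0.16 at the other hours, and the difference from their mean was 1.53 ± 0.19 (adjusted p = 1.4e-05).

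Ccbe1 rests on 1 probe set. Its 3 other probe sets, of which 1 passed the filter, had -0.09, -0.07 and -0.06 at 32 h. With the mean of its probe sets past the filter it still passed, with the filter and probe set taken from the other hours it had -0.05, and with all 60 arrays the call ended. The next genes were 2500002B13Rik (effect at 32 h 1.77 ± 0.23, adjusted p of the difference 0.0594) and Polr3g (0.132).

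**Figure D5:**
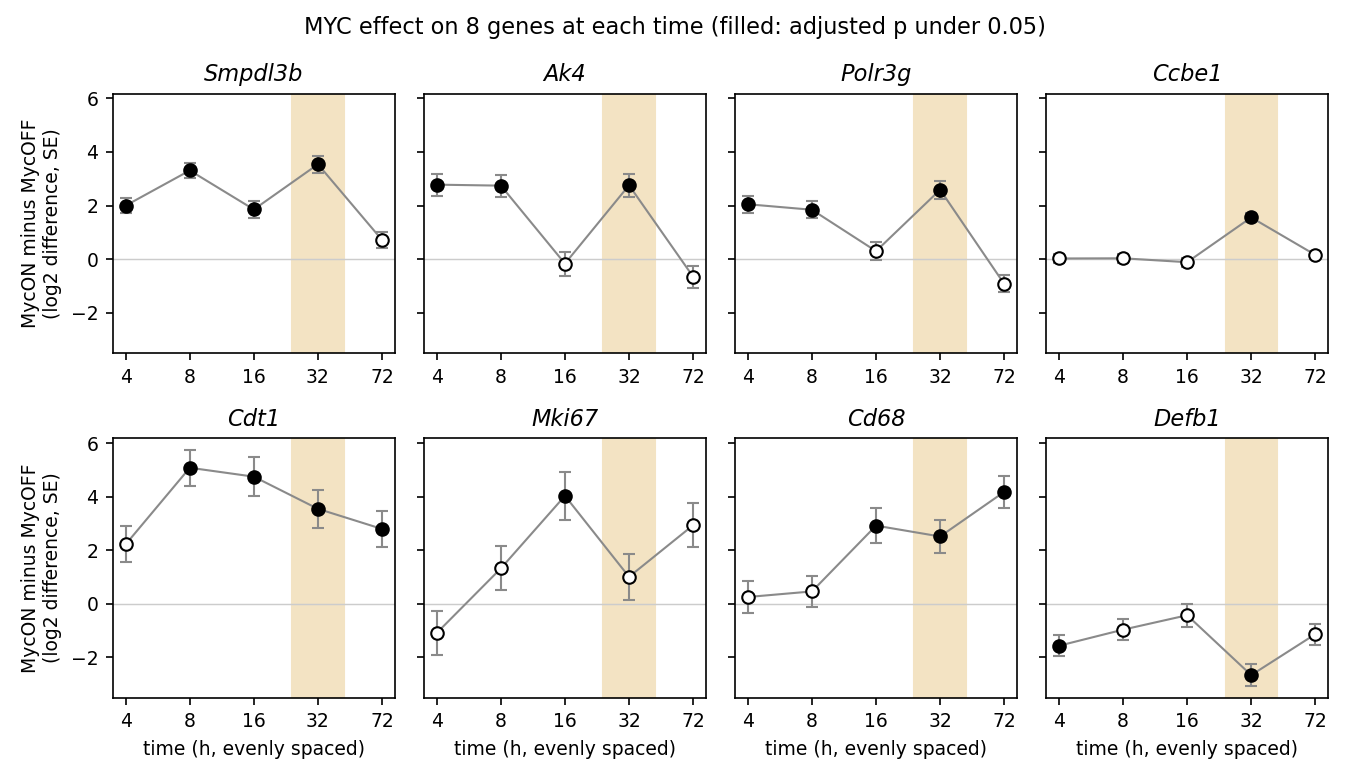
MycON minus MycOFF (log2 difference, bars SE, mean of both injections) for 8 genes at 4, 8, 16, 32 and 72 h, evenly spaced, with 32 h shaded. Filled points passed an adjusted p under 0.05 at that hour; Ccbe1 departs from 0 at 32 h, Ak4 and Polr3g are high at 4, 8 and 32 h, and Mki67 passes at 16 h.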

How the data were processed

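The deposited values are log2 expression of 45101 probe sets on Affymetrix arrays; per the submitters' processing notes MAS5 and GCRMA were used, with no role given. The log base was inferred from the deposited range (-12.3 to 12.8), and every probe set had a median of 0 over the 60 arrays. Values were used without further scaling. Probe sets with 1 gene symbol and an interquartile range over the 52 arrays kept at or above the 40th percentile (0.101) were tested, the one with the widest range per gene: 13176 of 18193 named genes. Symbols were matched to RefSeq (GRCm38.p6) for 34741 of 34945 probe sets. The filter includes the arrays of 32 h, so a gene can pass through its MycON values.

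One model of 20 group means was fitted with limma 3.58.1 (R 4.3.3; 32 residual and 2.75 prior degrees of freedom), the same code having been tested on simulated data. The MYC effect is the mean of the differences with water and with exenatide, so injection is held constant, and values with ± are log2 differences with their SE. Genes passed at an adjusted p under 0.05, which in every case is limma's. The number of arrays limits the precision.

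The 38 gene lists (693 of 827 members tested), members and tests were chosen with earlier results of these data known, so no list is independent evidence of its direction. Named are the 12 largest rises and falls of the same sign with both injections, the 8 smallest p, up to 4 members per list, 20 fixed genes, and the 3 smallest p of the interaction and of the contrast with other hours. One gene that this rule names is not reported here. A few further list members, such as Pcna, Mcm6 or Lyz2, were named to describe their list after their values were seen. Whether replicate numbers of the titles pair the samples was not settled. Same-numbered arrays of different groups at 32 h correlated between -0.38 and 0.41, 2 of 12 over 0.1. Arrays of unlike number correlated between -0.42 and 0.38. With 2 MycON arrays per group such values are equal and opposite, so they cannot decide it. Alternatives covered the arrays used, scaling, filters, probe sets, weights, the block, each array left out, and 3 MycOFF arrays left out together, where the lone MycOFF water array is assumed to vary like the other groups. Figures were drawn with matplotlib.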

Additional observations from a re-analysis of the deposited data

Results flagged for a closer look

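Within the 4 MycON or 6 MycOFF arrays, 15 of 246 values checked (6.1%) had 1 array far from the others, where chance marks about 1 in 20 such groups. Among MycON arrays, exenatide replicate 1 stood apart in Smpdl3b (2.37, others 3.58 to 3.78), Cd68 (1.15, others at least 2.51) and Mycn (0.42, others at most -0.08). Water replicate 2 stood apart in Cdt1 (1.01), Tomm20 (0.33) and Nop14 (1.43), and water replicate 3 in Eif4ebp2 (0.71). Among MycOFF arrays, exenatide replicate 1 stood apart in Cdc25a (-1.07), Hlf (1.65) and Cdkn1a (-2.66), and water replicate 1 in Slc6a15 (0.20), Pfas (-3.14) and the mean over cAMP and CREB targets (-0.44). Water replicate 3 stood apart in Mcm7 (-0.056) and Max (-0.16).

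The MYC effect on Ccbe1 differed between 32 h and the mean of the other hours by 1.53, by the test of that difference. This rests on 1 probe set, chosen with the arrays of 32 h included: with the filter and probe set from the other hours the difference was -0.047 (adjusted p = 0.997, limma), and with all 60 arrays it did not pass. In data left out of the comparison, the MycON exenatide replicate 3 array of 32 h had a mean of 4.53 over stromal markers and of 10.004 over muscle and skin markers, above the highest of the 52 arrays kept (2.98 and 3.21).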

How the results depend on the processing

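The 436 calls of the MYC effect became 722 in a fit of the 10 arrays of 32 h alone (356 shared), 138 with all 60 arrays (114 shared; 54.3% higher against 71.3%), 1112 after quantile normalization (436 shared) and 1709 with array weights (54.9% higher), whose estimation stopped before its tolerance was reached. Of the 2 choices made after seeing the data, calling genes whose arrays did not overlap gave 1262, and leaving out the 3 MycOFF arrays with high muscle and skin markers gave 80 (71 shared), with 13 for water and 8 for exenatide. Counts without 1 array ran from 181 to 427. With water, 63 became 99, 10, 222 and 690 in the same order and 95 with the mean over probe sets, and 21 to 68 without 1 array. With exenatide, 43 became 6 with all 60 arrays, 234 after quantile normalization and 404 with weights, and 12 to 43 without 1 array. The interaction gave 2 genes with no filter, 5 with weights and 0 to 3 without 1 array. The contrast with other hours gave 0 with all 60 arrays, 0 with the 60th percentile filter, 0 with the filter over other hours, 2 with the mean over probe sets, 13 after quantile normalization, 35 with weights, and 1 to 5 without 1 array (5 without MycON water replicate 1 of 8 h). The cause of these changes was not tested.

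Of 70 named calls, leaving out the 3 MycOFF arrays ended 44, all 60 arrays 41 and the 10 arrays alone 10. Mycn, at -0.01, changed sign with all 60 arrays (0.23), quantile normalization (0.070), median centring (0.031), weights (0.011) and the replicate block (0.0057), and had -0.134 to 0.115 without 1 array. Iapp had -1.13 with all 60 arrays. Without the 3 MycOFF arrays Mycn had 0.12, Ins2 -0.43 and Iapp -0.21. Ccbe1 had -0.074, and -0.047 against other hours, with the filter over other hours, which takes another probe set. With the replicate number as a block, the counts were 414, 52, 40, 0 and 1. Of the named calls, the block ended that of Cd163. Whether the numbers pair the samples was not settled. Named genes not called in the main fit could gain a call: Odc1 with the mean over probe sets, and Ddit3 with quantile normalization and with weights. Other alternatives kept the counts within 1.5 times.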
